A study of Homo sapiens with 4 samples.

Results

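The mRNAs of 8 glycolytic enzymes were examined for binding by LARP4, a La-related RNA-binding protein, in HEK293, a line from human embryonic kidney. The genes were ALDOA, TPI1, GAPDH, PGAM1, ENO1, PKM, LDHA and LDHB, each taken as 1 stranded window of hg19 that was chosen by name and position. On the plus strand these were chr16:30064400-30081800 for ALDOA, chr12:6976200-6980200 for TPI1, chr12:6643500-6647600 for GAPDH, chr10:99185900-99193300 for PGAM1 and chr11:18415900-18429900 for LDHA. On the minus strand they were chr1:8921000-8939200 for ENO1, chr15:72491300-72523800 for PKM and chr12:21788200-21810900 for LDHB. The window ends stand in for the gene ends and are not annotated ends. The intervals of the deposited lists that touched a window on the strand of the gene were its members. They numbered 189 of 171755 clusters in LARP4 eCLIP replicate 1, 190 of 191899 clusters in LARP4 eCLIP replicate 2, and 76 of 7153 regions in the authors' series-wide list.

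The 2 LARP4 eCLIP replicates were unmodified HEK293 cells, irradiated at 254 nm with 400 mJ/cm2 and immunoprecipitated with an antibody to LARP4. The 2 size-matched inputs came from the same line and irradiation without the antibody, and they entered only as the denominator of each value. In eCLIP, crosslinked protein and RNA are recovered together, and the RNA fragments are sequenced, so a log2 fold over input above 0 means more fragments than in RNA of the same gel range. The series' named interest was mRNAs of nuclear genes for mitochondrial proteins, whereas the enzymes here act in the cytosol.

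Glycolysis turns glucose into pyruvate in the cytosol. Aldolase (ALDOA) splits a sugar bisphosphate, triosephosphate isomerase (TPI1) interconverts the products, and GAPDH oxidises one of them with NAD+. Phosphoglycerate mutase (PGAM1), enolase (ENO1) and pyruvate kinase (PKM) carry the product on to pyruvate, and the lactate dehydrogenase subunits LDHA and LDHB exchange pyruvate and lactate. These mRNAs are abundant in many proliferating cell lines. LARP4 is known as a cytoplasmic protein that binds poly(A) and the poly(A)-binding protein and stabilises mRNAs.

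LARP4 eCLIP clusters enriched over input were present in 7 of the 8 glycolytic genes in both replicates and in PGAM1 in replicate 2 only, and they were concentrated near the 3′ ends. The like share over all genes is not given here, so this count of genes cannot be called particular to glycolysis. A cluster was called enriched at a log2 fold of at least 3 (8-fold) with the authors' −log10 p at 3 or more. By this rule 70 of 189 clusters were enriched in replicate 1, which is 37.0% (Wilson 95% interval 30.5 to 44.1), beside 5.01% of all clusters of that list. In replicate 2, 74 of 190 were enriched, which is 38.9% (32.3 to 46.0), beside 5.50% of all clusters. The share over both replicates was 38.0% ± 1.4 (SD, n = 2). With windows shortened by 10% of their length at each end, which removes the 3′ ends, it was 18.4% ± 2.0. No test was made, since the genes were chosen with earlier results of these data known, and intervals cover counting error only. They treat clusters as independent, although many touch, such as the 35 clusters of ALDOA in replicate 1, which formed 11 blocks.

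The middle and the upper part of the distribution of log2 folds lay higher in these genes than over all clusters. The median log2 fold of clusters in the 8 genes was 2.54 in replicate 1 and 2.71 in replicate 2, against 1.28 and 1.30 over all clusters. The middle ranges were 1.93 to 3.57 and 2.08 to 3.57 in the 8 genes, against 0.53 to 2.04 and 0.49 to 2.01 over all clusters. A log2 fold of 1 or more was reached by 181 of 189 and 182 of 190 clusters of the 8 genes, or 95.8% in each replicate, beside 59.4% and 60.9% of all clusters. Of all clusters, 87.7% and 89.8% lay below the median of the glycolytic genes. A log2 fold of at least 4 was reached by 21 and 23 clusters of the 8 genes, or 11.1% and 12.1%, beside 1.46% and 1.63% of all clusters. The highest log2 folds were 4.83 and 4.96 in the 8 genes, against 8.05 and 7.92 over all clusters, which are far more numerous.

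**Figure D1:**
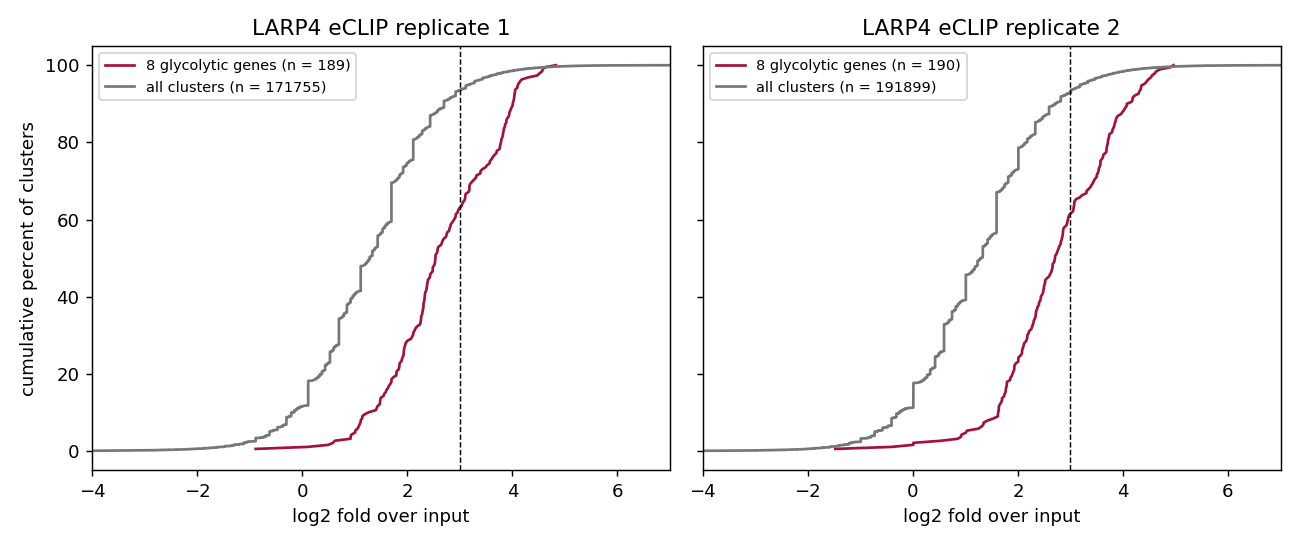
Cumulative percent of clusters (vertical axis) by log2 fold over input (horizontal axis), for clusters of the 8 glycolytic genes and for all clusters, in each LARP4 eCLIP replicate. The dashed line marks a log2 fold of 3. The curve of the 8 genes lies to the right of that of all clusters over most of its range, with medians of 2.54 and 2.71, against 1.28 and 1.30, and the curve of all clusters climbs in steps because many of its clusters share a value.

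The clusters of these genes also had high −log10 p. The median was 30.8 in replicate 1 and 31.6 in replicate 2, against 0.57 and 0.54 over all clusters. The −log10 p was 400 in 37 of 189 and 29 of 190 clusters, or 19.6% and 15.3%, beside 0.293% and 0.274% of all clusters. The next highest value in these genes was 87.2, in TPI1, so 400 was not the end of a continuous scale here. The 8 genes held 7.36% and 5.52% of all clusters with a value of 400. The p depends on depth as well as on the fold, and the files hold no reads. At a log2 fold of 3 or more with any p the share in the 8 genes stayed at 38.0%, beside 6.51% and 7.18% of all clusters. The part that depth plays in the difference was not tested.

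All 8 windows held at least 1 series-wide region. Of all loci, a locus being a run of clusters with gaps of at most 5 kb, 5.05% held one, but a window is not a locus. The clusters of ENO1 and PKM fell in several loci, of which chr1:8937366-8938708, chr15:72509823-72511451 and chr15:72523457-72523528 held no region. The loci of TPI1, GAPDH and PKM that held regions ran beyond their windows. The 76 regions covered 3051 bases in 33 blocks of touching regions, had a median width of 32 bases and a median log2 fold of 3.79 by the authors' value, and made up 1.06% of the list, whose median was 3.65. Their range was 3.11 to 4.85, and 28 of them reached 4, while the like share of the whole list is not given here. The count of regions depends on how a bound stretch is divided. The count of 33 blocks depends on it too, since regions that almost touch stayed apart, such as chr1:8921310-8921327 and chr1:8921329-8921373 of ENO1. GAPDH held 16 regions, ALDOA, TPI1 and ENO1 12 each, PKM 11, LDHA 7, LDHB 5 and PGAM1 1. Of the 2232 loci with a region, 42 had at least 16 of them and 95 at least 12.

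**Figure D2:**
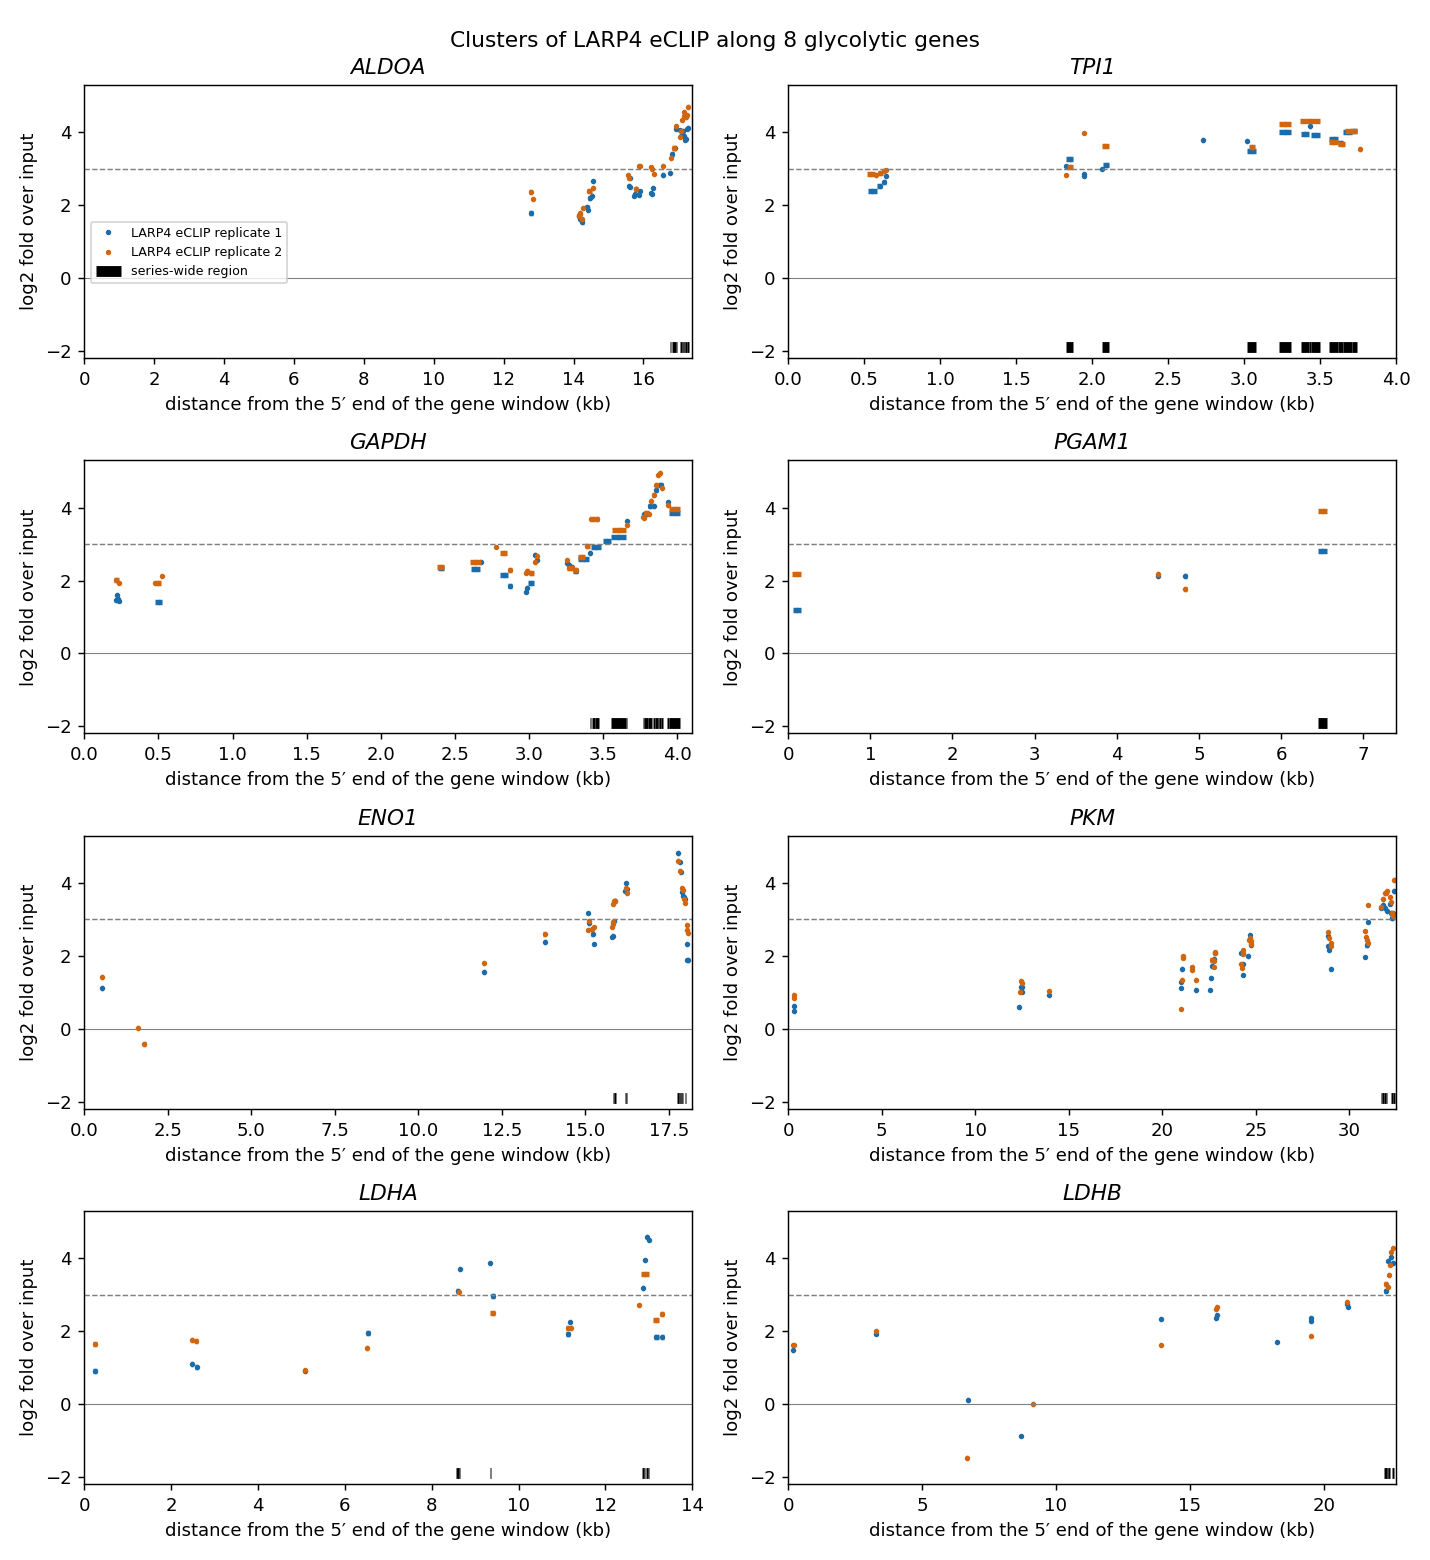
Log2 fold over input (vertical axis) of each cluster in both LARP4 eCLIP replicates by distance from the 5′ end of the gene window in kb (horizontal axis), 1 panel per gene. Black bars at the bottom are series-wide regions, and the dashed line is a log2 fold of 3. In each gene the clusters above the line lie towards the right, with early exceptions in TPI1 and LDHA.

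ALDOA had its first cluster 12724 bases into a window of 17401. That cluster had log2 folds of 1.79 in replicate 1 and 2.37 in replicate 2, and the lowest pair of overlapping clusters, taken by the higher value of each pair, had 1.55 and 1.63. The last cluster, 98 or 99 bases before the window's end, was the highest in both replicates, at 4.12 (17.4-fold) and 4.71 (26.1-fold). Enriched clusters numbered 12 of 35 and 16 of 30, and all of them lay past the window's midpoint. All 12 regions of ALDOA fell in the last 1 kb, in 4 blocks of which the longest ran unbroken for 259 bases. Its highest region, chr16:30081658-30081702 on the plus strand, averaged 4.41 ± 0.42 (SD, n = 2).

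TPI1 was the gene with the largest share of enriched clusters, 14 of 21 in replicate 1 and 10 of 16 in replicate 2. Its clusters were high along the whole window. The lowest clusters had log2 folds of 2.39 and 2.82, and the lowest overlapping pair 2.39 and 2.86, against medians of 1.28 and 1.30 over all clusters. Regions began 1831 bases into a window of 4001, with 2 of 12 on the 5′ side of the midpoint. TPI1 showed a plateau more than a peak: the 9 regions of the last 1 kb had authors' values between 3.55 and 4.21. The highest region, chr12:6979624-6979636 on the plus strand, had 4.18 and 4.31 in the replicates, or 4.24 ± 0.09 (SD, n = 2).

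GAPDH had its highest log2 folds near the 3′ end of a window of 4101 bases, with a low stretch about 1 kb before it. The clusters nearest the 5′ end had log2 folds of 1.42 to 1.59 in replicate 1 and 1.93 to 2.11 in replicate 2, with 1.43 and 1.93 in the lowest pair. Those between 1 and 2 kb before the end had 1.68 to 2.69 and 2.20 to 2.92. The peak reached 4.62 (24.5-fold) and 4.96 (31.2-fold), and the last cluster was lower again, at 3.86 and 3.97. All 11 and 17 enriched clusters, of 33 and 38, lay past the midpoint, as did all 16 regions. The region with the highest authors' value in the 8 genes was here, chr12:6647374-6647389 on the plus strand, at 4.79 ± 0.25 (SD, n = 2). GAPDH also has the most processed copies, with 65 pseudogenes named after it in RefSeq's GRCh38.p14 table, against 2 to 13 for the other 7 genes, and how the authors treated reads that match several copies is not stated in any source used.

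PGAM1 had the fewest clusters. It held 4 clusters in each replicate, with log2 folds of 1.19, 2.11, 2.11 and 2.82 in replicate 1 and 2.18, 2.18, 1.77 and 3.90 in replicate 2, from 5′ to 3′. The lowest pair was 2.11 and 1.77. The last of these, 110 bases wide, was the only region, chr10:99192349-99192458 on the plus strand. It was enriched in replicate 2 and not in replicate 1, and averaged 3.36 ± 0.76 (SD, n = 2), so its side of the threshold differed between the replicates. PGAM1 has 13 pseudogenes under its name in the same table.

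ENO1 peaked short of its 3′ end. Its lowest pair, the one nearest the 5′ end, had 1.11 and 1.42. Its highest cluster, also its highest region at chr1:8921390-8921456 on the minus strand, had 4.83 (28.4-fold) in replicate 1 and 4.61 (24.4-fold) in replicate 2, or 4.72 ± 0.16 (SD, n = 2). From there towards the 3′ end the clusters were lower and lower, and the last 3 had 2.33, 1.89 and 1.90 in replicate 1 and 2.86, 2.71 and 2.63 in replicate 2. These 3 clusters of ENO1 were the only ones in the last 250 bases of any of the 8 windows that were not enriched. A second stretch of regions ended 1949 to 2356 bases before the window's end, with cluster values of up to 4.01 and 3.85. ENO1 had 12 of 24 and 11 of 26 clusters enriched, all past the midpoint. Of its 12 regions, 9 had a −log10 p of 400, beside 38.2% of the 76 regions and 5.58% of the whole list.

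PKM had the lowest mean log2 fold, although it had the most clusters. Its first clusters had 0.62 and 0.50 in replicate 1 and 0.92 and 0.86 in replicate 2, and the pair of 0.50 and 0.86 was its lowest. Enriched clusters numbered 10 of 39 and 11 of 47, and 10 of its 11 regions lay in the last 1 kb of a window of 32501 bases. Its last cluster was its highest, chr15:72491388-72491456 on the minus strand, at 3.77 and 4.07, or 3.92 ± 0.22 (SD, n = 2). PKM makes alternative enzyme forms by choice of exon, and the windows here do not tell them apart.

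LDHA had an internal group of enriched clusters and a low 3′ end. The internal clusters ended 4646 to 5367 bases before the window's end, with 3.11, 3.70 and 3.89 in replicate 1 and 3.08 in replicate 2, where the cluster at the last of these positions had 2.49 and was not enriched. The highest stretch lay about 1 kb before the end. It was divided into 4 clusters of 3.20, 3.95, 4.58 and 4.52 in replicate 1, while 1 cluster of 184 bases in replicate 2 had 3.57. The last clusters had 1.84 and 1.85 in replicate 1 and 2.30 and 2.46 in replicate 2. Enriched clusters numbered 7 of 17 and 2 of 13, the largest relative difference between replicates among the genes with an enriched cluster in each, and the different division of the same stretch enters this count. The region highest by the authors' value, 4.05, was chr11:18428793-18428820 on the plus strand, which averaged 3.76 ± 0.27 (SD, n = 2) over the replicates. By that average chr11:18428821-18428873 was higher, at 4.08 ± 0.71. The lowest pair of LDHA had 0.92 and 0.93.

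LDHB carried its enrichment in 1 short stretch at the 3′ end. All 4 enriched clusters of replicate 1 and all 6 of replicate 2, of 16 each, lay in the last 500 bases of a window of 22701, with log2 folds of 3.10 to 4.03 and 3.22 to 4.30. LDHB also had the lowest values in the 8 genes, at −0.89 in replicate 1 and −1.48 in replicate 2, in clusters that ended 13994 and 15970 bases before the window's end. Its lowest overlapping pair had 0.11 and −1.48. The region highest by the authors' value, 4.53, was chr12:21788418-21788448 on the minus strand, which averaged 3.92 ± 0.15 (SD, n = 2) over the replicates. By that average chr12:21788302-21788365 was higher, at 4.08 ± 0.31. The paired enzymes of lactate metabolism had similar means, 2.38 ± 0.27 for LDHA and 2.32 ± 0.05 for LDHB (SD, n = 2).

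**Figure D3:**
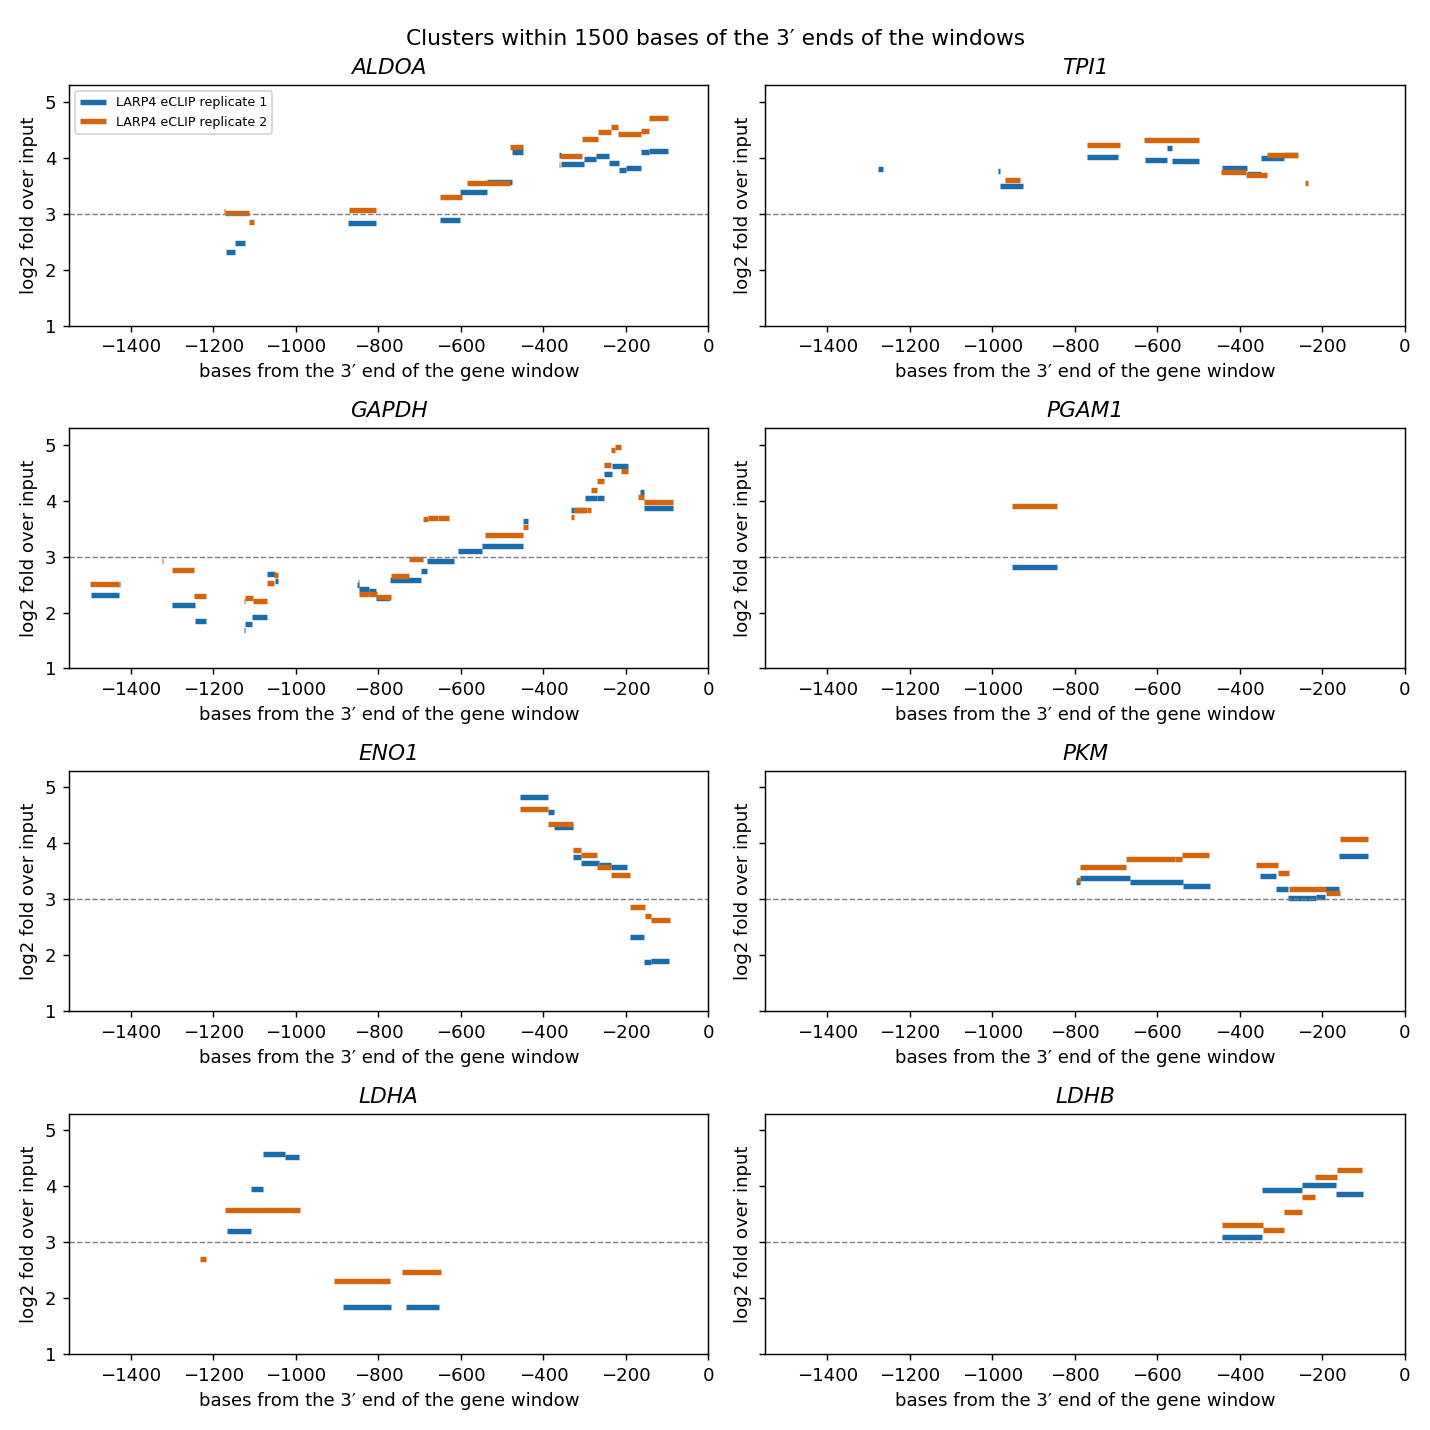
Log2 fold over input (vertical axis) of clusters within 1500 bases of the 3′ end of each gene window (horizontal axis, 0 is the window's end), 1 panel per gene, with bars as long as the clusters. The dashed line is a log2 fold of 3. ALDOA, GAPDH and LDHB are highest near the end, ENO1 is lower and lower after 4.83 and 4.61, TPI1 and PKM stay above 3, and LDHA ends below 3.

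Mean log2 folds put TPI1 first and PKM last. TPI1 averaged 3.42 ± 0.04, ENO1 2.98 ± 0.13, ALDOA 2.94 ± 0.18 and GAPDH 2.92 ± 0.28 (SD, n = 2 each). LDHA averaged 2.38 ± 0.27, LDHB 2.32 ± 0.05, PGAM1 2.28 ± 0.32 and PKM 2.16 ± 0.15 (SD, n = 2 each). Replicate ranges did not overlap between TPI1 and ENO1 or between GAPDH and LDHA. ENO1, ALDOA and GAPDH overlapped in turn, as did LDHA, LDHB, PGAM1 and PKM, so the order inside these groups is not settled by 2 replicates. Weighting clusters by width or taking the median kept TPI1 first and PKM last. With shortened windows TPI1 stayed first at 3.34, while ALDOA had 2.11 and LDHB, at 1.48, came last.

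**Figure D4:**
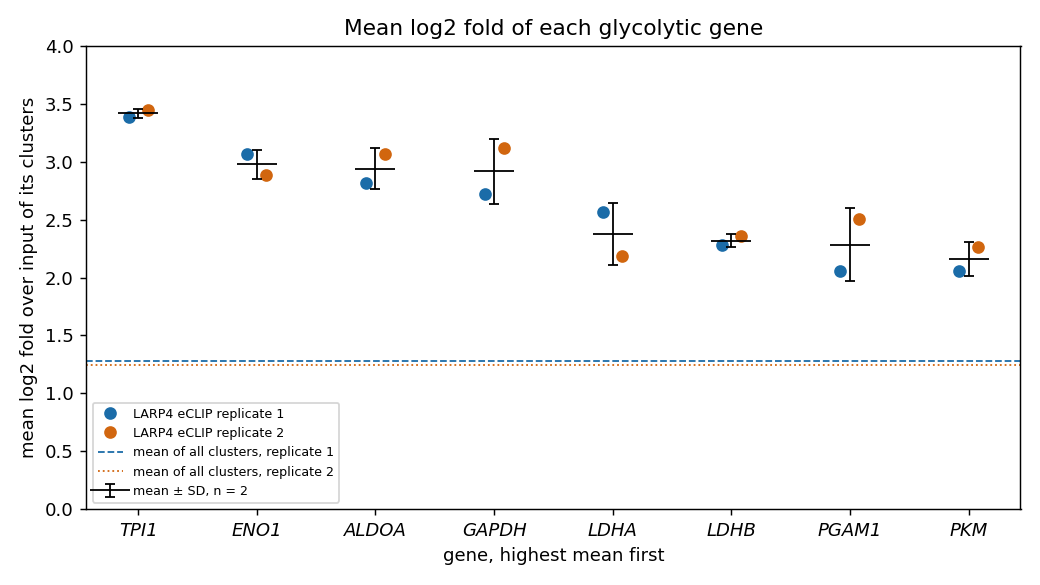
Mean log2 fold over input of the clusters of each gene (vertical axis) in LARP4 eCLIP replicates 1 and 2 (points), with the mean ± SD over the 2 replicates (bars), genes ordered by mean (horizontal axis). Horizontal lines are the means over all clusters, 1.28 in replicate 1 and 1.24 in replicate 2, and every gene lies above them, from 2.16 ± 0.15 for PKM to 3.42 ± 0.04 for TPI1.

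The position of enriched clusters along the genes was alike in both replicates. Past the window's midpoint lay 68 of 70 enriched clusters in replicate 1 and 72 of 74 in replicate 2, and the 2 on the 5′ side were in TPI1 in each case. Of the clusters not enriched, 90 of 119 and 85 of 116 lay past the midpoint, or 75.6% and 73.3%, since the clusters as a whole were denser there. The median log2 fold was 2.74 past the midpoint against 1.42 before it in replicate 1, and 2.85 against 1.75 in replicate 2. Of the regions, 74 of 76 lay past the midpoint and 61 within 1 kb of the window's end. The windows hold introns and exons, and no hg19 gene model was used, so clusters were not assigned to coding sequence, introns or UTRs.

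The enriched share was highest between 250 and 500 bases before the window's end and lower on the 5′ side of that stretch, and slightly lower in the last 250 bases. In the last 250 bases it was 19 of 22 clusters in replicate 1 and 21 of 24 in replicate 2. Between 250 and 500 bases all 24 and all 25 clusters were enriched, from 6 genes. Between 500 and 1000 bases the counts were 12 of 24 and 14 of 22, and between 1 and 2 kb 7 of 34 and 8 of 28. Farther than 5 kb only 2 of 39 and 1 of 47 remained, all in LDHA. The first cluster stood within 527 bases of the window's 5′ end in 7 genes, the exception being ALDOA, and in no gene was that first cluster enriched, at log2 folds of 0.62 to 2.39 in replicate 1 and 0.92 to 2.86 in replicate 2.

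Within genes, log2 fold tended to be higher towards the 3′ end, although in ENO1 and LDHA the last clusters were low again. Spearman's rho between the position of a cluster and its log2 fold was positive in all 8 genes in each replicate, with medians of 0.90 in replicate 1 and 0.83 in replicate 2. The lowest was 0.31 in replicate 1, for ENO1 with its low last clusters, and 0.32 in replicate 2, for PGAM1 with its 4 clusters. Over 4423 and 4975 loci with at least 10 clusters in the replicate, the median rho was 0.15 and 0.13, and 63.2% and 62.6% were positive. PGAM1 had fewer clusters than required of these loci, but it is counted among the 8 genes, with the highest rho of replicate 1, 0.95. These correlations are descriptions. Neighbouring clusters share a transcript, a library and often a border, and a locus can run beyond a gene, as those of GAPDH, TPI1 and PKM run beyond their windows.

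Values of both replicates lay close together in these genes. Of the 189 clusters of replicate 1, 184 overlapped a cluster of replicate 2. Both members of 64 pairs were enriched, while 15 pairs were enriched only in replicate 2, 3 only in replicate 1 and 102 not at all. Of the pairs enriched in replicate 1, 95.5% (Wilson 95% interval 87.6 to 98.5) were enriched in replicate 2, beside 66.7% over all overlapping clusters. That interval treats the pairs as independent, although some pairs share the same cluster of replicate 2. Pearson's r across the pairs was 0.92 and Spearman's rho 0.93, against 0.74 and 0.67 over all overlapping clusters, as a description across clusters of shared transcripts. The SD of a single value was 0.31 in the 8 genes, and it was 0.24 to 0.34 in ENO1, PKM, GAPDH, ALDOA and TPI1 but 0.40 in LDHB, 0.46 in LDHA and 0.53 in PGAM1.

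**Figure D5:**
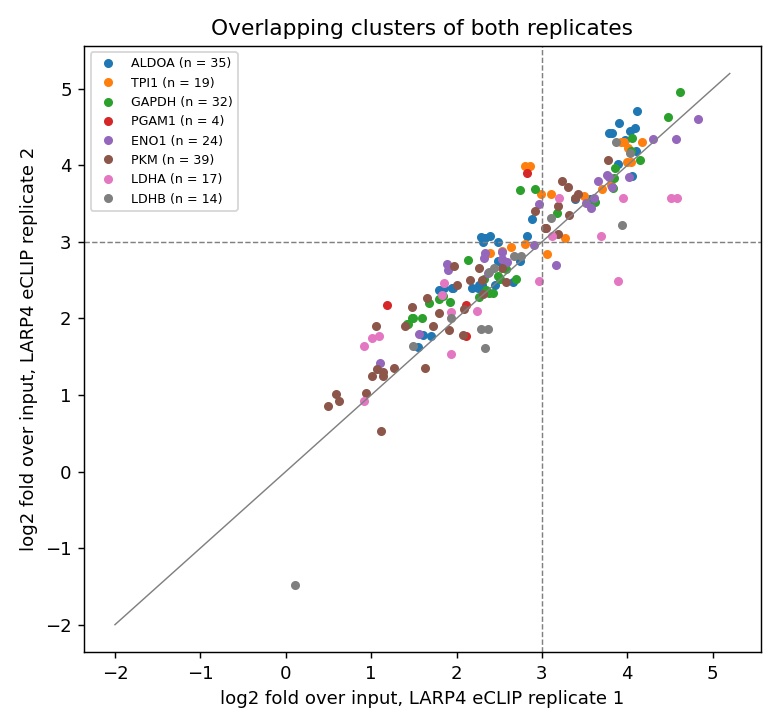
Log2 fold over input in LARP4 eCLIP replicate 2 (vertical axis) against replicate 1 (horizontal axis) for the 184 overlapping clusters of the 8 genes, coloured by gene. The solid line is equality and the dashed lines are log2 folds of 3. Most points lie near or above the line of equality, and the LDHA points with about 4 in replicate 1 lie below it.

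Replicate 2 was higher in 141 of the 184 pairs, by 0.19 on the log2 scale on average. The shift was 0.45 over the 4 pairs of PGAM1, 0.32 in ALDOA, 0.29 in TPI1, 0.24 in GAPDH, 0.22 in PKM and 0.15 in ENO1, and the mean was below 0 in LDHA at −0.10 and LDHB at −0.16. Replicate 2 was higher in 8 of 17 pairs of LDHA and in 9 of 14 pairs of LDHB, and LDHB's pair of 0.11 and −1.48 had the widest gap, 1.59. At the 76 regions the overlapping clusters had medians of 3.82 in replicate 1 and 3.74 in replicate 2, although replicate 2 was higher at 49 of the 76. Over all regions of the list these medians were 3.57 and 3.73. The shift over all overlapping clusters is not given here, so the shift cannot be called particular to these genes. An enriched cluster with the longest overlap was present in each replicate at 66 of the 76 regions (86.8%), beside 72.5% of all regions. It was present only in replicate 2 at 9 and only in replicate 1 at 1. The replicates lay within 1 log2 unit at 72 of the 76, or 94.7%, beside 75.8% of all regions.

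Little signal was present on the other strand or below input. Each replicate had 1 cluster on the opposite strand of the 8 windows, at the 5′ edge of the ENO1 window, with log2 folds of 1.43 and 2.59 and −log10 p of 0.57 and 1.16, neither enriched, and no series-wide region lay there. Clusters below input numbered 1 of 189 and 2 of 190, in LDHB and ENO1, beside 11.6% and 11.2% of all clusters.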

How the data were processed

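eCLIP reads were processed with the authors' pipeline, per the labels' protocols. STAR 2.7.6a, SAMtools 1.6, cutadapt 1.14 and UMI-tools 1.0.0 are listed, with hg19, per the submitters' processing notes. No source used here gives the peak caller, the input pairing or the combining of replicates. The authors deposited stranded intervals with a −log10 p, limited to 400, and a log2 fold over input. These lists have no header, so both meanings were read from the values. Starts were made 1-based. Read depth is unknown.

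Intervals touching a gene window by at least 1 base on its strand were taken, and thresholds were a log2 fold and −log10 p of at least 3. A region took each replicate's value from its longest-overlapping cluster. Window ends are not annotated gene ends. The genes, lists and thresholds were chosen with earlier results of these data known. All 8 genes are named, with the region highest by the authors' value and the lowest overlapping pair of each, and other clusters were chosen after their values were seen. Other glycolysis genes were not analysed here, since they need an hg19 annotation. No test was run. The functions were tested on simulated data. Scripts ran in Python 3.11.15 with pandas 2.3.3, numpy 2.4.6, matplotlib 3.10.9 and SciPy 1.17.1.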

Additional observations from a re-analysis of the deposited data

How the results depend on the processing

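Of 73 alternatives, 49 moved values by less than the replicate SD, or kept a count within 1.5 times or a share inside its interval. The other 24 moved it by more, 12 of these for single genes. Leaving out 1 of 2 replicates always moves a mean by less than their SD, so those alternatives could not count as moved. All of them, for single genes and for the pooled results, are among the 49, so 49 of 73 overstates how stable the results were. Without the alternatives that leave out a replicate, 12 of 24 alternatives for single genes moved the value. None changed the sign of a value, which shares and counts cannot do. The enriched share of 38.0% was 11.6% with the fold threshold at 4 on the log2 scale (beside 1.46% and 1.63% of all clusters) and 93.1% with it at 1 (beside 14.0% and 13.7%). It was 18.4% with shortened windows, 40.6% as a share of covered bases (beside 6.22% and 7.05%) and 27.8% with touching clusters joined (beside 3.65% of all clusters in replicate 1). Joining clusters was chosen after seeing the data. The median log2 fold was 2.39 with joined clusters and 2.62 without. The mean over genes was 2.33 with shortened windows and 2.67 without. The 76 regions became 28 with the threshold at 4 and 33 after merging, and the like counts of the whole list are not given here. The share of enriched clusters past the midpoint, 97.2%, was 95.8% over the span of clusters, and 93.7% lay in the last of 3 equal parts of the window. The opposite strand held 1 cluster, against 189.5 on the strand of the genes, as means over replicates. Leaving out a replicate gave 37.0% to 38.9% enriched and medians of 2.54 to 2.71. No paired analysis was possible because no result comes from a test and the inputs have no list of their own.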

Other observations

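The log2 folds of the lists recurred at a few values. The 3 commonest values, 1.70, 0.70 and 1.11 in replicate 1 and 1.59, 0.59 and 1.01 in replicate 2, made up 23.4% and 24.1% of all clusters, but 3 of 189 and 1 of 190 clusters of the 8 glycolytic genes.

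The authors' value of a region was within 0.01 of the mean of both replicates' longest-overlapping clusters at 26 of the 76 regions of the 8 genes. It lay more than 0.01 above every overlapping cluster of either replicate at 9 of them, and below every one at 1.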
